A study of Mus musculus with 6 samples.

Results

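Cell cycle and DNA replication genes were examined by RNA-seq in Paneth cells sorted from mice. The 38 genes form a list of known function, chosen with earlier results of these data known, and all 38 were found among the 55414 identifiers of the count table by matching Ensembl identifiers to GENCODE symbols. They fell into 14 S-phase genes, 22 mitotic genes, and the pair Hmgb2 and Tubb5, which rise in growing cells. The libraries came from the small intestine of WT mice (C57BL/6J in the study's methods). Of the 6 libraries, 3 (St_TNF) were from mice fed standard chow and 3 (ZincDef_TNF) from mice fed zinc depleted chow, in both cases for 7 weeks. All mice had been injected with TNF 3 hours before sampling, so the response to TNF itself cannot be read from these libraries. The study describes its samples as sorted cells of individual mice, while a supplementary legend says that sorted cells were pooled to reach the cell number. The age of the mice is not given in the sources used here. The series was designed with 4 biological replicates per group, of which 3 per group were analysed.

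Cells that divide copy their DNA in S phase and separate it in mitosis. Before S phase the MCM complex is loaded on origins as the helicase that will open the double helix, PCNA clamps the polymerases to DNA, and ribonucleotide reductase and thymidylate synthase supply nucleotides. E2F factors drive many of these genes at the start of the cycle, while the genes of mitosis (cyclin B and CDK1, the Aurora and Polo kinases, the condensins, kinesins and the anaphase-promoting complex with CDC20) are switched on later, in many cases through CHR and CCAAT elements. In the small intestine, division takes place in the stem cells and transit-amplifying cells of the crypt, which lie next to or above the Paneth cells. Mature Paneth cells are post-mitotic secretory cells.

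The libraries held 7338947, 6139397 and 9977439 counts on the standard diet (replicates 1, 2 and 3) and 9992139, 7430027 and 12772373 counts on the zinc depleted diet. Throughout, values per library are given in this order. Paneth cell transcripts dominated every library: a list of 9 Paneth markers, among them Lyz1 and Defa24, took 51.4 to 64.7% of the counts, and the 10 most abundant genes took 65.6 to 82.5%. Because so few genes hold so much of a library, 2 scales were used. CPM are counts as a share of the library's total, brought to a common size, and TMM-scaled CPM are divided further by a factor (0.460 to 1.73) that sets most genes level between libraries. Under total-count scaling the median log2 fold change of all 9749 tested genes was -0.66, and under TMM it was 0.00, so differences in CPM have to be read against that shift. Where a gene had a count of 0, up to 3 counts (0.235 to 0.489 CPM, by library) cannot be told from absence, and intervals and limits cover counting error only.

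All 38 genes had a lower mean CPM in the zinc depleted libraries, and 36 of 38 had a lower mean after TMM scaling. The ratio of the mean CPM on the standard diet to that on the zinc depleted diet had a median of 2.94 over the S-phase genes (range 1.45 to 3.80) and of 5.44 over the mitotic genes. The lowest of the mitotic ratios was 2.76, for the condensin subunit Smc2. The highest ratio belonged to the kinetochore gene Cenpf, whose 61 counts on the standard diet stood against 2 counts on the zinc depleted diet. Pooled over libraries, that is a 39.3-fold ratio in CPM with a 95% counting interval of 10.4 to 332. In bulk libraries, fewer cells that express a gene and less RNA of it per cell cannot be told apart.

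**Figure D1:**
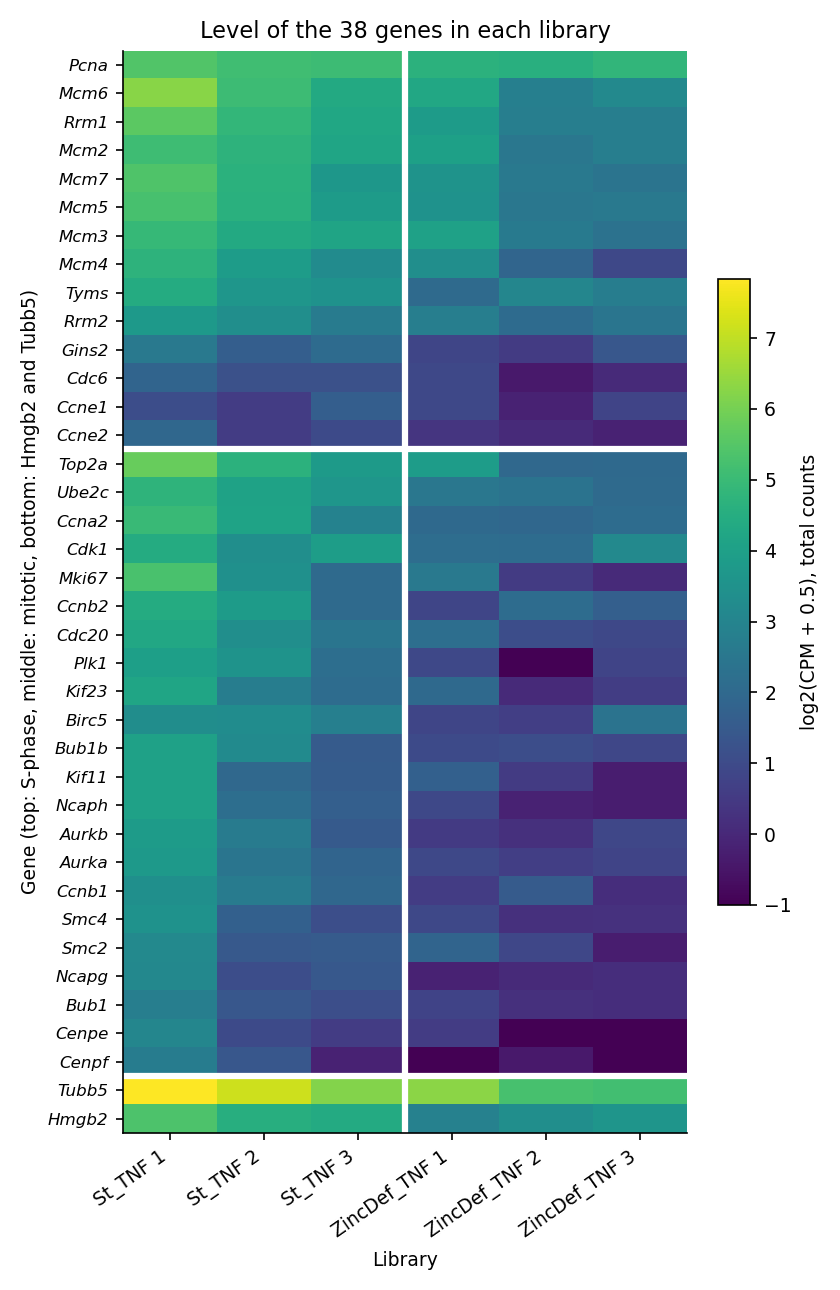
Level of each of the 38 genes (rows, ordered by mean CPM within S-phase, mitotic and the pair Tubb5 and Hmgb2) in each of the 6 libraries (columns), as log2(CPM + 0.5) on total counts, with brighter colours for higher levels. St_TNF 1 was the brightest column for 37 of 38 genes, and the darkest cells lie in the mitotic block of the zinc depleted libraries.

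The test for an effect of diet was run over all genes. By edgeR's quasi-likelihood test none of the 9749 tested genes passed an adjusted p of 0.05 (0% called), and none of the 35 members that passed the filter on low counts did either. No adjusted p was below 0.681. Before adjustment, at a p under 0.05, 252 genes were higher and 393 were lower with zinc depletion, and the lower ones made up 4.03% of the tested genes. Of the 35 members, 19 were among those lower genes and none was among the higher ones. They were 5 of the 13 S-phase genes tested and 14 of the 20 mitotic genes tested. A gene can pass the filter through a single group, so some tested members were low in all zinc depleted libraries. Ncapg, with 4, 4 and 8 counts there, is an example. Fewer than 10 counts were found for 4, 17 and 12 of the 38 members in the zinc depleted libraries. Such members are part of the counts and medians given for tested members here and below. With no filter on low counts, 23 of 38 members were lower at an unadjusted p under 0.05 in edgeR, beside 4.09% of 17790 genes. DESeq2 called 10 genes (0.103% of those given an adjusted p) but no member, with a smallest adjusted p of 0.123 among members. Limma-voom called no gene. At an unadjusted p under 0.05 it had 21 members lower and none higher, beside 3.03% of all tested genes lower. P-values here measure the spread between libraries of a group.

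By direction, 33 of 35 tested members were lower with zinc depletion under TMM and 35 of 35 under total counts. Of all 9749 tested genes, 4874 were lower under TMM and 8470 under total counts. The median log2 fold change was -0.79 over the S-phase genes (-1.20 to 0.42) and -1.47 over the mitotic genes (-2.66 to -0.37), beside 0.00 over all tested genes. Under total counts the medians were -1.50 and -2.38, which lay 0.84 and 1.72 further down than the median of all genes. The groups did not overlap, with each zinc depleted library below each standard diet library, for 26 of the 35 tested members in CPM, beside 10.3% of all tested genes. In TMM-scaled CPM this held for 20 of 35, beside 6.58%. No member had the groups apart in the opposite direction. The members that did not pass the filter were Ccne2, Cenpe and Cenpf. With them included, the counts without overlap were 29 of 38 in CPM and 22 of 38 in TMM-scaled CPM. Of the 17790 genes with a count in any library, 1498 were apart in this direction in CPM and 965 in TMM-scaled CPM.

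**Figure D2:**
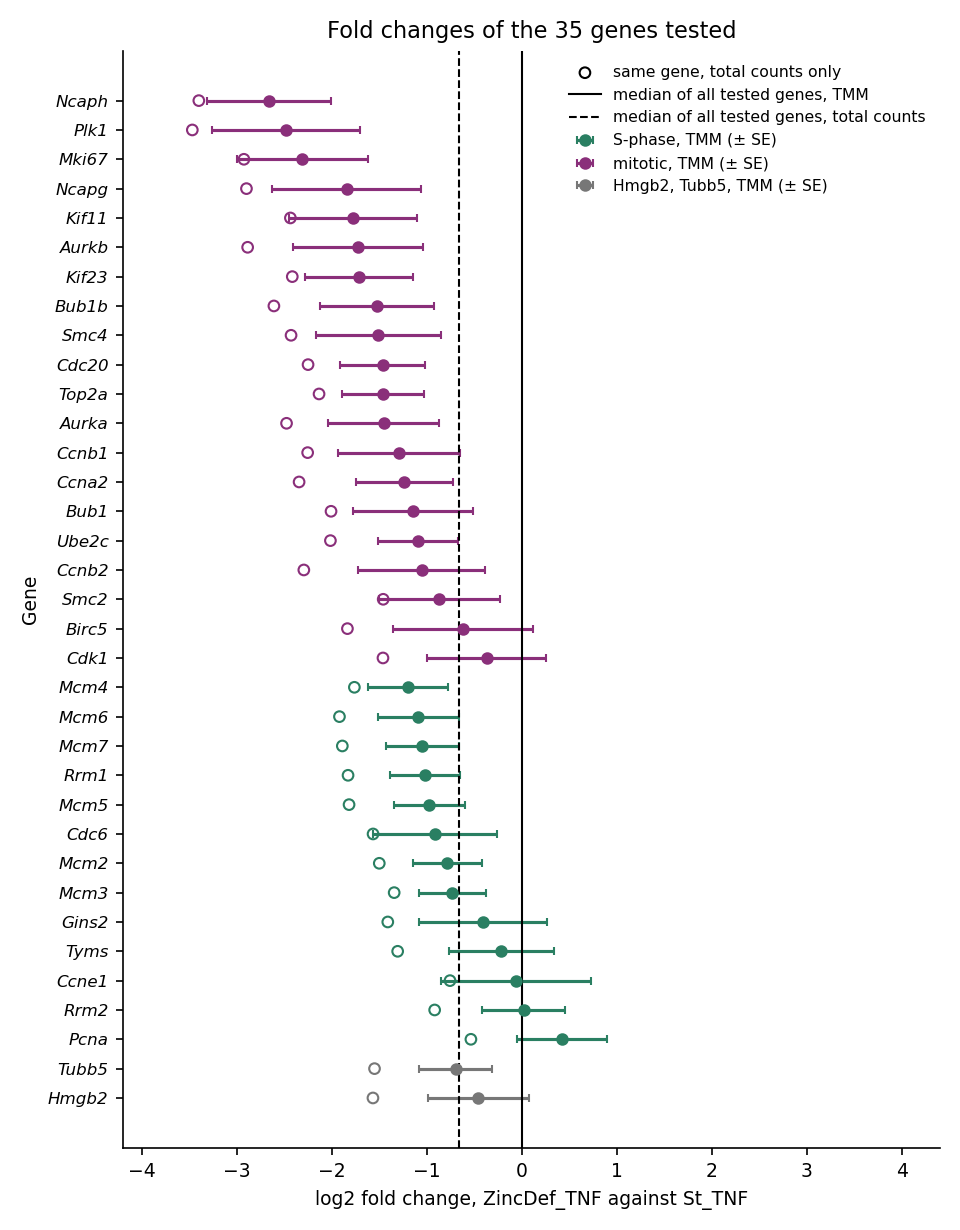
Log2 fold change (x axis, ZincDef_TNF against St_TNF) of the 35 tested genes (y axis), as filled points with TMM scaling and bars for 1 SE, and as open circles with total counts only. Of the TMM values, 33 of 35 lie left of the solid line at the median of all tested genes (0.00), and the dashed line marks the same median under total counts (-0.66).

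Among the S-phase genes, the 6 subunits of the MCM helicase were alike in direction. Mcm6, the highest of them per length, stood at 77.0, 33.1 and 20.3 CPM in the standard diet libraries and at 19.4, 6.46 and 8.46 CPM in the zinc depleted ones. The groups did not overlap, but standard diet library 3 lay within 1 CPM of zinc depleted library 1. Its promoter is shown with the RefSeq start after base 250. Mcm6 and Rrm1, shown further below, had the highest mean CPM of the S-phase genes with E2F-type letters in their window. The Mcm6 window holds these letters more than once. The window lies at chr1:128287393-128287692 on the minus strand of GRCm39, and capitals mark the E2F-type letters and the CCAAT box on either strand:

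Mcm6: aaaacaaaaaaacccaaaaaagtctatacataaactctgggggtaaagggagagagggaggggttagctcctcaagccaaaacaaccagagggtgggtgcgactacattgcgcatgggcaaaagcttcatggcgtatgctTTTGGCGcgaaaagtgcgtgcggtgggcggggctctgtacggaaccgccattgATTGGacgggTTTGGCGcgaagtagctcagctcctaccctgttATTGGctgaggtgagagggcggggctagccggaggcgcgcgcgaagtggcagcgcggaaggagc

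The log2 fold change of Mcm6 was -1.09 ± 0.43 (SE, n = 3 per group). Mcm4 stood at 25.5, 14.2 and 9.22 CPM against 9.71, 3.23 and 1.41 CPM and had a log2 fold change of -1.20 ± 0.42, the lowest of the S-phase genes under TMM. Under total counts Mcm6 was lower (-1.92 against -1.77). In CPM the groups of Mcm4 overlapped, since zinc depleted library 1 exceeded standard diet library 3, while in TMM-scaled CPM they did not. Mcm7 (41.8, 24.6 and 12.3 against 11.0, 5.38 and 4.78 CPM) and Mcm5 (37.7, 23.8 and 14.0 against 10.8, 5.11 and 5.40 CPM) had log2 fold changes of -1.05 ± 0.38 and -0.98 ± 0.37. Both kept their groups apart on both scales. Mcm2, with 33.4, 25.9 and 17.8 against 15.6, 5.11 and 6.42 CPM, had a log2 fold change of -0.79 ± 0.36. For all 6 subunits each zinc depleted library lay below each standard diet library in TMM-scaled CPM.

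The genes for nucleotide supply differed among themselves. Rrm1, the large subunit of ribonucleotide reductase, stood at 48.1, 28.5 and 18.8 CPM against 14.0, 6.33 and 6.42 CPM, with no overlap and a log2 fold change of -1.02 ± 0.37. Rrm2, the small subunit whose level follows the cycle, stood at 12.8, 9.77 and 5.91 CPM against 6.30, 3.77 and 4.93 CPM, and its groups overlapped. Thymidylate synthase (Tyms) stood at 21.3, 11.9 and 10.7 CPM against 3.70, 7.81 and 6.19 CPM, and its groups overlapped once TMM scaling was used. The Rrm1 promoter, at chr7:102090652-102090951 on the plus strand of GRCm39, carries the E2F-type letters between a pair of CCAAT boxes:

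Rrm1: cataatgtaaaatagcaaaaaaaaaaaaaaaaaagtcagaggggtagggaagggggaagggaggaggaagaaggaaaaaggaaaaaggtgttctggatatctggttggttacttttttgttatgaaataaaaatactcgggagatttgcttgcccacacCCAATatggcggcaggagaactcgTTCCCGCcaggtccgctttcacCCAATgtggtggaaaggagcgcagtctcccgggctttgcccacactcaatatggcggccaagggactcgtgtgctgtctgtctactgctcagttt

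Pcna, the sliding clamp of the replicative polymerases, also acts in DNA repair and was the S-phase gene with the highest mean level, 20.4 CPM per kilobase of transcript against 9.24 for Mcm6. It stood at 42.6, 34.7 and 32.8 CPM on the standard diet and at 25.1, 23.3 and 27.4 CPM on the zinc depleted diet, 36.7 ± 5.24 against 25.3 ± 2.06 (mean ± SD, n = 3). The CPM groups did not overlap. TMM scaling turned the direction: 24.7, 23.1 and 36.5 against 17.2, 36.4 and 59.6 TMM-scaled CPM, with overlap and a log2 fold change of 0.42 ± 0.47, beside -0.54 under total counts. Its adjusted p was 0.801, and without zinc depleted library 3 the fold change was -0.04. Pcna had the highest fold change of all members under TMM. Rrm2 was the other member above 0, and it was below 0 under total counts and with no filter on low counts. The licensing factor Cdc6 (2 to 23 counts per library), the GINS subunit Gins2 (7 to 40 counts) and the E-type cyclins Ccne1 (3 to 26 counts) and Ccne2 (4 to 25 counts) were low in every library, and their groups overlapped in TMM-scaled CPM.

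Among the mitotic genes, Top2a, the topoisomerase that untangles sister DNA, had the most reads. It stood at 54.9, 25.2 and 13.5 CPM on the standard diet and at 14.2, 3.50 and 3.52 CPM on the zinc depleted diet. The groups overlapped by the nearness of standard diet library 3 to zinc depleted library 1, and in TMM-scaled CPM they did not (31.8, 16.8 and 15.1 against 9.75, 5.47 and 7.66). The log2 fold change was -1.46 ± 0.43 (SE, n = 3 per group), with an adjusted p of 0.681 in edgeR. Ube2c, the ubiquitin-conjugating enzyme that works with the anaphase-promoting complex, was the highest of the mitotic genes per length (11.8 CPM per kilobase, against 3.65 for Top2a). It stood at 26.6, 16.5 and 12.1 CPM against 5.20, 4.71 and 3.68 CPM, with no overlap and a log2 fold change of -1.09 ± 0.42. Both promoters are shown because these genes had the highest mean CPM of the mitotic genes with CHR letters in their window. Each window also has 6 CCAAT boxes, the highest number of any member. The Top2a window is chr11:98914966-98915265 on the minus strand and that of Ube2c chr2:164611599-164611898 on the plus strand, both on GRCm39, and capitals mark the CHR letters and the CCAAT box on either strand:

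Top2a: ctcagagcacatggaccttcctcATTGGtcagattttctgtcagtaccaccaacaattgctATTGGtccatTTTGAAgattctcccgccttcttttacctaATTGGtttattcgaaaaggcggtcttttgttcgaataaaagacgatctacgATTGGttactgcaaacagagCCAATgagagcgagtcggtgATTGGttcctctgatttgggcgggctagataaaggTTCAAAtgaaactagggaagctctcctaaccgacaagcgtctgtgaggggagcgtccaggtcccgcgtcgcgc

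Ube2c: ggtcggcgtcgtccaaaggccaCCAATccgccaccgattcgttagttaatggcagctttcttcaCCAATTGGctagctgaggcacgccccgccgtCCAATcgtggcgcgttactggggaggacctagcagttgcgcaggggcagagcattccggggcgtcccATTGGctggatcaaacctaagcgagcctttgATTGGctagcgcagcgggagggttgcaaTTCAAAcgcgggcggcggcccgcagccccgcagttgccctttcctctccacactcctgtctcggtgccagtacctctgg

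Mki67 encodes Ki-67, the chromosome coating protein used as a marker of cycling cells. It had 285, 64 and 36 counts on the standard diet and 54, 7 and 7 counts on the zinc depleted diet, or 38.8, 10.4 and 3.61 against 5.40, 0.942 and 0.548 CPM. The library with the most counts held more than all 5 others together, and zinc depleted library 1 exceeded standard diet library 3 in CPM. The log2 fold change was -2.31 ± 0.69. Plk1, the Polo-like kinase of mitotic entry, had 114, 68 and 41 counts against 14, 0 and 16 counts, with no overlap on either scale and a log2 fold change of -2.49 ± 0.78. Ncaph, a condensin subunit, had 118, 25 and 27 counts against 14, 3 and 4 counts. Its log2 fold change of -2.66 ± 0.65 was the lowest of all members and its groups did not overlap. These 3 were the members that edgeR called when no filter on low counts was used (adjusted p of 0.00844, 0.0172 and 0.0286). That fit called 76 of 17790 genes, or 0.427%.

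The cyclins and their kinase were less uniform. Ccna2, which acts in S phase and in G2, stood at 31.2, 16.9 and 7.12 CPM against 3.60, 3.36 and 3.84 CPM, with a log2 fold change of -1.24 ± 0.51. In CPM its 3 zinc depleted libraries were close to each other (3.60 ± 0.236, mean ± SD, n = 3) and below each standard diet library. In TMM-scaled CPM they were at 2.47, 5.26 and 8.34 against 18.1, 11.3 and 7.92, and the groups overlapped. Ccnb1, the cyclin that drives mitotic entry, had 73, 36 and 34 counts against 10, 18 and 8 counts, with no overlap on either scale. Ccnb2 had 155, 86 and 36 counts against 13, 29 and 34, and overlapped on both. Cdk1, the partner of both B cyclins, stood at 21.3, 9.77 and 14.5 CPM against 4.00, 3.90 and 8.53 CPM, which kept the groups apart. In TMM-scaled CPM Cdk1 was highest in zinc depleted library 3 (18.6, against 12.3, 6.50 and 16.2 on the standard diet), and its log2 fold change of -0.37 ± 0.62 was the nearest to 0 of the mitotic genes. Without zinc depleted library 1 it was 0.10.

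The kinases and checkpoint genes of the spindle were low in the zinc depleted libraries. Aurka, which acts at centrosomes, had 96, 30 and 31 counts against 14, 8 and 16, a log2 fold change of -1.46 ± 0.59. Aurkb, the kinase of the chromosomal passenger complex, had 102, 36 and 23 counts against 9, 5 and 17, a log2 fold change of -1.73 ± 0.69. Birc5 (survivin), of the same complex, did not follow it closely: 70, 57 and 66 counts stood against 13, 8 and 59, and zinc depleted library 3 held 4.62 CPM beside 1.30 and 1.08 in the other two. Bub1b, of the spindle checkpoint, had 119, 54 and 24 counts against 15, 12 and 17, a log2 fold change of -1.53 ± 0.60. Cdc20, the activator of the anaphase-promoting complex that the checkpoint holds back, had 142, 61 and 49 counts against 41, 12 and 18, a log2 fold change of -1.47 ± 0.45. In CPM the groups of all 5 were apart, and in TMM-scaled CPM those of Aurka and Cdc20 were.

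The motors and condensins had some of the lowest counts. Kif11, the kinesin that pushes spindle poles apart, had 119, 21 and 25 counts against 28, 7 and 4, a log2 fold change of -1.78 ± 0.67. Kif23, a kinesin of the midbody, had 131, 38 and 39 counts against 36, 4 and 13, a log2 fold change of -1.72 ± 0.57. In both, standard diet library 1 held far more counts than any other library. Ncapg had 60, 10 and 22 counts against 4, 4 and 8 (log2 fold change -1.85 ± 0.78), and Smc4, a core subunit of condensin, had 79, 17 and 17 counts against 14, 5 and 9 (-1.51 ± 0.66). Cenpe, a kinetochore motor, had 57, 9 and 10 counts against 10, 0 and 0, and Cenpf had 44, 13 and 4 counts against 0, 2 and 0. A count of 0 was found for 1 member in zinc depleted library 1 (Cenpf), for 2 in library 2 (Plk1 and Cenpe) and for 2 in library 3 (Cenpe and Cenpf), and for none on the standard diet. Fewer than 10 counts were found for 4, 17 and 12 of the 38 members on the zinc depleted diet and for 0, 3 and 1 on the standard diet.

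Hmgb2, a chromatin protein, and Tubb5, a tubulin subunit that cells also use outside division, form the remaining pair. Tubb5 had the highest mean level per length of all 38 (37.5 CPM per kilobase). It stood at 228, 144 and 72.6 CPM against 78.0, 38.4 and 35.4 CPM, with overlap, and had a log2 fold change of -0.70 ± 0.38 (adjusted p of 0.681). Hmgb2 stood at 40.6, 22.6 and 20.6 CPM against 6.81, 9.82 and 11.6 CPM, with no overlap. In TMM-scaled CPM its groups overlapped (23.5, 15.0 and 23.0 against 4.67, 15.4 and 25.2), and the log2 fold change was -0.46 ± 0.54 (adjusted p of 0.812).

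Summed over genes, the S-phase genes took 384, 233 and 169 CPM on the standard diet and 137, 74.3 and 80.3 CPM on the zinc depleted diet. The means were 262 ± 110 and 97.1 ± 34.4 CPM (SD, n = 3), a 2.70-fold ratio, and the groups did not overlap. After TMM scaling the S-phase sums were 222, 155 and 188 against 93.8, 116 and 175, a 1.47-fold ratio with overlap, since zinc depleted library 3 exceeded standard diet library 2. The mitotic genes took 389, 175 and 99.9 CPM against 60.2, 34.2 and 38.5 CPM, which was 221 ± 150 against 44.3 ± 14.0 CPM and 4.99-fold. After TMM scaling they took 225, 116 and 111 against 41.3, 53.4 and 83.8, a 2.54-fold ratio. The mitotic groups stayed apart on both scales. The sums are small shares of a library: the Wilson 95% interval of the mitotic sum was 375 to 404 CPM in the library where it was highest and 30.2 to 38.7 CPM in that where it was lowest. No test was made on a sum over members.

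**Figure D3:**
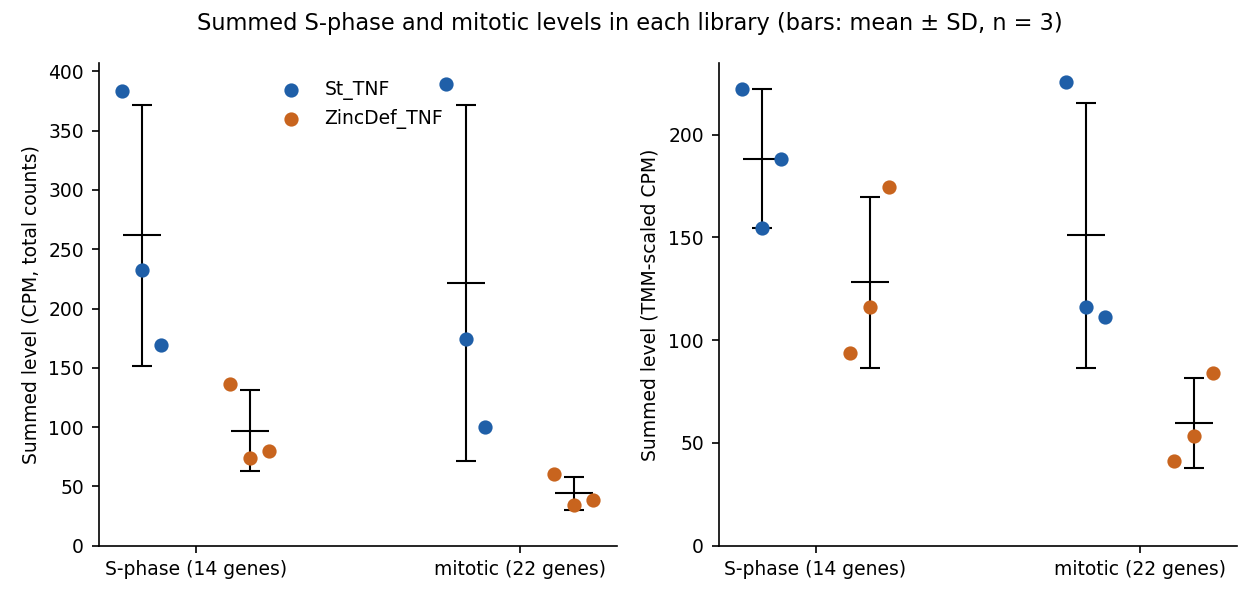
Summed level of the 14 S-phase and the 22 mitotic genes in each library (points, blue for St_TNF and orange for ZincDef_TNF, each group from replicate 1 on the left to 3), in CPM on total counts (left) and in TMM-scaled CPM (right), with the mean ± SD of 3 libraries in black. The groups are apart in 3 of the 4 comparisons and overlap for the S-phase genes under TMM.

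The ratio of S-phase to mitotic counts within a library does not depend on how libraries are scaled. It was 0.986, 1.33 and 1.69 on the standard diet and 2.27, 2.17 and 2.08 on the zinc depleted diet, 1.34 ± 0.352 against 2.18 ± 0.0929 (mean ± SD, n = 3). Every zinc depleted library thus had proportionally more S-phase than mitotic counts than any standard diet library, and the difference of the means was 0.839. With counts divided by transcript length the ratios were 0.866, 1.02 and 1.34 against 2.22, 1.91 and 1.83, and with the 5 S-phase and 9 mitotic genes that have transcripts of 3000 bases or less they were 1.08, 1.10 and 1.58 against 3.13, 2.16 and 2.37. Both kept the groups apart. Without Pcna and Top2a, the gene with the highest mean CPM in each list, the ratios were 1.02, 1.33 and 1.58 against 2.42, 1.66 and 1.51, and the groups overlapped. The same ratio over other genes, 39 further replication genes against 38 further mitosis genes, was 1.13, 1.14 and 1.42 against 1.43, 1.38 and 1.45, and overlapped too. Whether the groups were apart in this ratio thus depended on the genes summed.

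**Figure D4:**
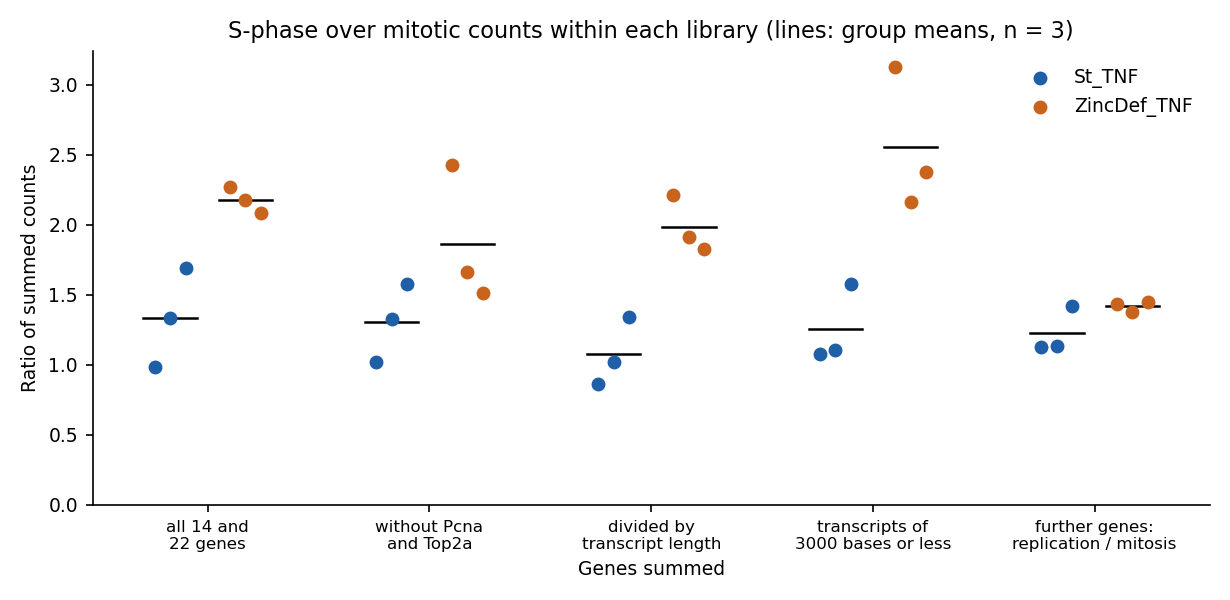
Ratio of summed replication to summed mitosis counts in each library (points, with lines at the group means of 3 libraries), for the 14 S-phase over 22 mitotic genes, without Pcna and Top2a, with counts divided by transcript length, for transcripts of 3000 bases or less, and for the further replication over the further mitosis genes. The groups overlap without Pcna and Top2a and for the further genes, and are apart in the others.

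Standard diet library 1 stood apart from the others. It was the highest library for 37 of 38 members in CPM (the exception was Ccne1) and for 27 of 38 in TMM-scaled CPM, and it alone held 389 of the mitotic CPM where the next library held 175. Without it, the ratio of the mean sums was 2.07-fold for S-phase and 3.10-fold for mitotic genes in CPM. The fit without it tested 36 members, of which 34 were lower with zinc depletion, but only 3 of them, all mitotic, were lower at an unadjusted p under 0.05, beside 1.01% of all genes in that fit, and the median of the mitotic genes was -1.03. The S-phase count at that p was 0 without standard diet library 1 and also 0 without zinc depleted library 2, where 9 of 38 members were lower at that p, beside 2.12% of all genes. Without zinc depleted library 1 it was 16 of 38 members, beside 11.9% of all genes. Without standard diet library 1, 26 of 35 tested members had groups apart in CPM and 20 of 35 in TMM-scaled CPM, beside 10.8% and 7.86% of all tested genes. That share of all genes moved with the library left out. Without zinc depleted library 1 it was 66.8% in CPM and 22.6% in TMM-scaled CPM, with 33 and 20 of 35 members. Without standard diet library 3 it was 44.8% and 19.3%, with 33 and 24 of 35 members. The lowest library differed by scale: in CPM it was zinc depleted library 2 for 19 members and library 3 for 14, and in TMM-scaled CPM it was library 1 for 23 and library 2 for 11.

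Other genes of the cell cycle gave the wider setting. None of the 98 that passed the filter was called by edgeR, DESeq2 or limma-voom, and in edgeR 75 were lower and 23 higher with zinc depletion (median log2 fold change -0.62). Of these, 27 were lower and none was higher at an unadjusted p under 0.05, beside 4.03% of all tested genes lower. The 31 tested mitosis genes had a median of -1.21 (12 lower at that p), and the 36 tested replication genes one of -0.58 (11 lower). By the smallest unadjusted p, the mitosis genes were led by the kinesin Kif22 (89, 35 and 32 counts against 14, 7 and 6) and the condensin subunit Ncapd2 (264, 121 and 56 against 27, 11 and 30). Their log2 fold changes were -2.08 ± 0.54 and -2.14 ± 0.56, both without overlap. The replication genes were led by Lig1, the ligase that joins Okazaki fragments (183, 80 and 63 counts against 32, 13 and 24), and Pold1, the catalytic subunit of polymerase delta (172, 60 and 45 against 45, 5 and 17). Their log2 fold changes were -1.76 ± 0.46 and -1.79 ± 0.55.

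The drivers of G1 and the brakes on the cycle lay nearer to the median of all genes. Over 16 tested G1 drivers and E2F genes the median log2 fold change was -0.36, with 14 lower. At an unadjusted p under 0.05 in edgeR, beside 4.03% of all tested genes, 2 of the 16 were lower. These were Foxm1, the factor that turns on mitotic genes (44, 17 and 14 counts against 11, 3 and 2, log2 fold change -1.93 ± 0.67), and cyclin D2, Ccnd2 (475, 232 and 138 against 192, 48 and 40, -1.37 ± 0.44). Over 15 tested brakes the median was -0.15, with 9 lower and 6 higher. Under total counts all 15 were lower, as were 8470 of all 9749 tested genes, with a median of -0.89 beside -0.66 over all genes. Rbl2, a pocket protein, and Wee1, the kinase that holds CDK1 inactive, had log2 fold changes of -1.72 ± 0.67 and -1.39 ± 0.55, both with overlapping groups. The summed level of the brakes was 159 ± 15.3 against 155 ± 26.3 TMM-scaled CPM and 217 ± 61.2 against 141 ± 110 CPM (mean ± SD, n = 3), with overlap on both scales. That of the G1 drivers and E2F genes was 182 ± 31.1 against 141 ± 18.2 TMM-scaled CPM, without overlap. In CPM it was 257 ± 114 against 114 ± 57.4, with overlap. Of the 16 tested, 5 had groups apart and lower in TMM-scaled CPM and 4 in CPM, beside 6.58% and 10.3% of all tested genes.

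Markers of intestinal stem cells moved with the members. All 9 that passed the filter were lower with zinc depletion (median log2 fold change -1.27). In edgeR 5 of them were lower at an unadjusted p under 0.05, beside 4.03% of all tested genes, and none was called. DESeq2 called Rgmb (adjusted p of 0.0469), and edgeR with no filter on low counts called Rgmb, Ascl2 and Axin2. The sum of the 10 stem markers was 1290.4 to 4115 CPM on the standard diet and 542 to 779 CPM on the zinc depleted diet, 3.74-fold without overlap. In TMM-scaled CPM it was 1109 to 2384 against 535 to 1242, with overlap. Like the members, it was highest in standard diet library 1. Olfm4 took 63.1 to 89.4% of it, and without Olfm4 the sum was 744, 422 and 170 against 287, 124 and 60.4 CPM, which overlapped. Lgr5, the receptor that marks the stem cell at the crypt base, had 249, 99 and 32 counts against 64, 26 and 3. Ascl2 and Znrf3 were at 0 in zinc depleted library 3 and were counted in all others. The part of stem or other cycling crypt cells in the lower levels of the members was not tested.

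Markers of other epithelial cells were also lower in part. In edgeR the median log2 fold change was -1.14 for enteroendocrine markers (4 of 5 tested lower) and -1.04 for tuft markers (5 of 5). It was -0.90 for enterocyte markers (3 of 4) and 0.44 for goblet markers (3 of 8 lower). Under limma-voom these medians were -1.38, -0.04 (3 of 5 tuft markers lower), -0.60 and 0.02. Summed tuft markers stood at 168, 802 and 25.7 against 205, 70.0 and 31.2 CPM, far highest in standard diet library 2. EdgeR called none of these markers, but with no filter on low counts it called Alpi, Sis, Fabp1, Gip and Dclk1, all lower. Of the 9 Paneth markers, 8 were higher with zinc depletion under TMM (median log2 fold change 1.16), and edgeR called none. Their sum was 51.4 to 61.6% of counts on the standard diet and 55.0 to 64.7% on the zinc depleted diet, with overlap. The sum of the 11 immune markers was 39.0 to 96.9 CPM against 36.7 to 61.5 CPM. Lyz2 held most of it, while Cd3e and Itgax were at 0 in all 6 libraries and Ptprc had 0 to 33 counts. The 7 stromal and endothelial markers summed to 4.91 to 7.82 CPM against 2.80 to 6.97 CPM, with Cdh5 and Pdgfra at 0 throughout. Summed enterocyte and tuft markers overlapped between the groups on both scales. Enteroendocrine markers were apart in CPM, at 71.4 ± 33.3 on the standard diet and 28.6 ± 2.47 on the zinc depleted diet (SD, n = 3). In TMM-scaled CPM they overlapped (50.7 ± 15.0 against 43.4 ± 24.5). Goblet markers overlapped in CPM but were apart and higher with zinc depletion in TMM-scaled CPM (1806 ± 170 against 3754 ± 888). The part of these cells in the members' values was not tested.

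Transcript length was related to the fold change across all genes. Over 9740 tested genes with a length the correlation of log2 length with log2 fold change was -0.245, a description across genes that share the same 6 libraries. All tested genes under 1500 bases had a median of 0.43, and those of 4500 bases or more one of -0.13. Over the 35 members the correlation was -0.244, over the 20 mitotic genes -0.273 and over the 13 S-phase genes -0.766. By ranks (Spearman) these were -0.158, -0.208 and -0.538, beside -0.236 over all genes. The 3 S-phase genes with the shortest transcripts (Pcna, Ccne1 and Rrm2) were those nearest to or above 0. The mitotic genes lay well below the other genes in each length class, with medians of -0.86, -1.47, -1.49 and -1.78 from the shortest class (2 genes) to the longest, where all genes had 0.43, 0.05, -0.07 and -0.13. With the trend of all genes removed, the medians were -0.73 for S-phase and -1.44 for mitotic genes. The part of RNA quality in these values was not tested.

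**Figure D5:**
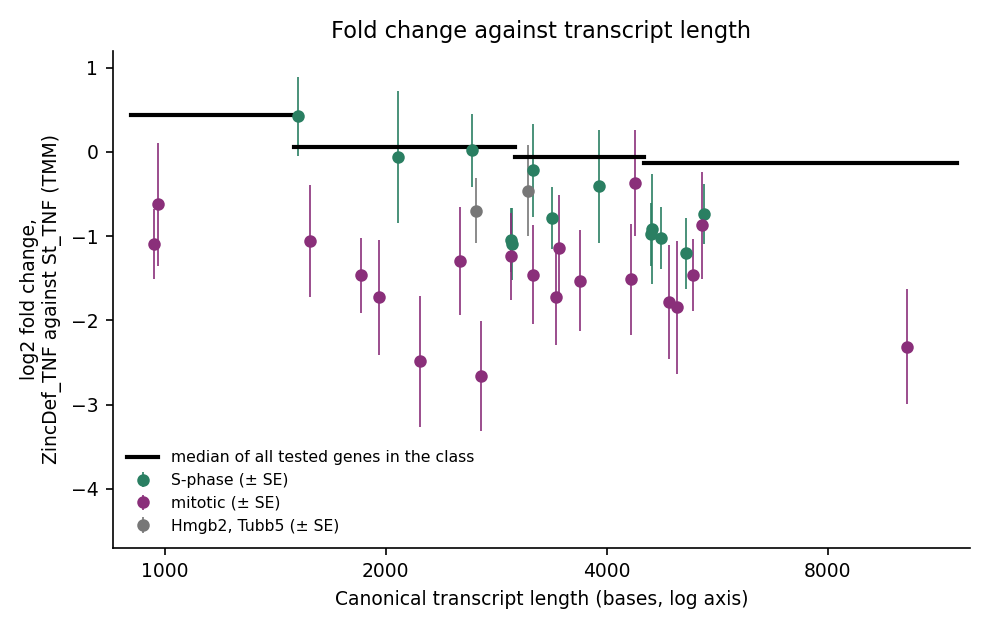
Log2 fold change under TMM (y axis, ZincDef_TNF against St_TNF, bars for 1 SE) against the length of the canonical transcript (x axis, log scale) for the 35 tested genes, with black lines at the median of all tested genes in 4 length classes. The mitotic genes lie below the black lines at every length, while the 3 S-phase genes with the shortest transcripts lie on or near them.

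The promoters set the S-phase and mitotic genes apart in sequence. RefSeq windows of 300 bases, from 250 before to 50 after the start, were matched by symbol for 32 of the 38 members, in 33 windows, since Mcm7 has more than 1. The E2F-type letters GCGGGAA or TTTGGCG, searched on both strands, were in 7 of 12 S-phase windows (58.3%) and 1 of 19 mitotic windows (5.26%), that of Ncapg, beside 5.99% of all 32851 windows. The CHR letters TTTGAA were in 1 of 12 S-phase windows (8.33%), that of Mcm2, and in 14 of 19 mitotic windows (73.7%), beside 17.9% of all windows. The CCAAT box was common in both, in 75.0% and 89.5% of windows beside 37.4% of all. At least 2 boxes were found in 41.7% of S-phase and 52.6% of mitotic windows, beside 11.7% of all. Overlapping matches were counted separately. Of the S-phase genes, Mcm3, Mcm5, Mcm7 and Cdc6 have the E2F-type letters besides Mcm6 and Rrm1. Pcna, Rrm2, Tyms and Ccne1 have neither those nor the CHR letters in this window. Of the mitotic genes with a window, Ccnb1, Birc5, Ncaph, Bub1 and Cenpe have no CHR letters. Those with CHR letters include Mki67, Cdk1, Ccnb2, Plk1, Cdc20, Aurka and Bub1b. A match is a description of these letters in these windows, and no test of binding.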

How the data were processed

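Gene expression was measured by single-end RNA-seq (Element AVITI) of FACS-sorted mouse Paneth cells. For 6 libraries the authors deposited a table of raw counts, whose rows are Ensembl identifiers. Their processing notes name FastQC, Trimmomatic 0.39, STAR 2.7.10a, DESeq2 and the build mm39. Which counter was used, whether it read strand and how it treated multi-mapping reads is not given in the sources used here. The 38 members and all other lists were chosen with earlier results of these data known.

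Symbols, positions and canonical transcript lengths were taken from GENCODE M39 (GRCm39), which held 54749 of the 55414 identifiers. Diet was tested two-sided in edgeR 4.0.16 (quasi-likelihood F test, run in R 4.3.3) with TMM factors, the filterByExpr filter (minimum count 10) and diet as the only term. Benjamini-Hochberg adjustment covered all 9749 tested genes, with a threshold of 0.05. The SE is the absolute log2 fold change divided by the square root of F. Replicates of a group differed beyond sampling noise (chi-square per degree of freedom 15.3 to 168), so each was counted as 1 sample, and the biological coefficient of variation was 43.96%. The fit was tested on simulated data. Sums and ratios over members carry no test. Intervals are Wilson 95% intervals for shares and an exact one for the Cenpf ratio.

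Log2 fold changes were printed for members with an adjusted or unadjusted p under 0.05, the 4 S-phase and 4 mitotic genes with the highest mean CPM, Hmgb2, Tubb5 and the members at both ends. Of each further list the 2 genes with the smallest unadjusted p were named, and any other value was chosen after it was seen. Promoter windows came from a RefSeq table on GRCm38.p6, and printed windows were placed on GRCm39 by exact match. DESeq2 1.42.0, limma-voom (limma 3.58.1), RLE factors, total counts, scaling without alpha-defensins, no filter, a replicate block and the omission of each library were alternatives. The removal of the length trend (lowess span 0.3), the limit to short transcripts and the counts of members without each library were chosen after seeing the data.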

Additional observations from a re-analysis of the deposited data

How the results depend on the processing

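Under 6 of the 7 other fits of all 6 libraries (RLE factors, scaling without alpha-defensins, no filter, DESeq2, limma-voom and the replicate block), the 24 members with a printed log2 fold change kept their direction. Under total counts only, 23 of 24 did, and Pcna was at -0.54. Of the 24, 19 were printed for an unadjusted p under 0.05 in the main edgeR fit, a choice that favours a stable direction. Rrm2, not among them, was below 0 with no filter. The number of genes called was 0 except with no filter on low counts (76 genes, of which 3 were members and 3 further cell cycle genes), with DESeq2 (10) and without standard diet replicate 3 (28, so 0 to 28 over the fits without a library). The 3 members were Mki67, Plk1 and Ncaph (adjusted p of 0.00844, 0.0172 and 0.0286 with no filter, at most 1.00 over their alternatives). The number of members higher with zinc depletion was 0 with total counts and 1 with no filter, limma-voom or the replicate block, and 0 to 6 with a library left out. The S-phase and mitotic medians were -1.50 and -2.38 with total counts, and the mitotic median was -1.73 to -1.03 with a library left out. With a library left out, Pcna was at -0.038 to 0.78 and Cdk1 at -1.41 to 0.10. The ratios of summed levels (2.70 and 4.99 in CPM) were 1.47 and 2.54 in TMM-scaled CPM. The difference in the S-phase to mitotic ratio (0.839) was 0.558 without Pcna and Top2a and 1.30 with short transcripts only. Without the bases after the start, the CHR letters were in 47.4% of mitotic windows and 16.0% of all. The causes of these changes were not tested.

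Deviations from the group means correlated at 0.147, -0.06 and 0.248 between same-numbered libraries. The labels link these libraries by number only, and whether they share more was not tested. A replicate block called 0 genes, with medians of -0.82 for S-phase and -1.44 for mitotic genes. Mitotic genes with few counts in the zinc depleted libraries limit the precision of single fold changes at this depth.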
